A study of Mus musculus with 2 samples.

Results

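Early genes of the blood-brain barrier were examined in the neural tube of mouse embryos at embryonic day 11.5. The set held 8 genes chosen by name, Cldn5, Ocln, Slc2a1, Mfsd2a, Abcb1a, Adgra2, Reck and Plvap, out of 43346 gene identifiers in the deposited tables, and each of the 8 names matched 1 gene. RNA came from B6NCrl embryos, with male and female embryos pooled, and the labels name no treatment or modified allele. Replicate 1 pooled tissue of 109 embryos and replicate 2 pooled tissue of 88 embryos, and no second tissue, age or condition was measured. The total RNA-seq libraries were made from 10 ng of RNA above 200 bases, with spike-in RNAs added, and held 27638068 and 29166901 expected counts, the estimated reads per gene. Levels are given in TPM, a transcript abundance relative to all transcripts of the library, which is scaled for gene length and so lets genes be set side by side. All 8 neural progenitor and all 6 neuron markers that were checked had at least 1 TPM in both libraries, as did all 15 general endothelial markers.

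The blood-brain barrier is built by endothelial cells of capillaries that grow into the neural tube from the vessels around it. Neural progenitors secrete Wnt7a and Wnt7b, which endothelial cells receive through Frizzled receptors with the co-receptors Reck and Adgra2, and the beta-catenin signal that follows drives barrier genes such as Cldn5 and Slc2a1. Tight junctions then close the space between cells, transporters carry nutrients in and drugs out, and Plvap, which forms the diaphragms of fenestrae and caveolae, is lost from brain capillaries as the barrier matures.

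Of the 8 genes 7 were detected, meaning at least 1 TPM in both libraries, where 59.9% of 21474 protein-coding genes were. The same share is the background of every other count of detected genes given here. The glucose transporter gene Slc2a1 was the highest at 129.7 ± 7.38 TPM (SD, n = 2, as for every mean below), followed by Plvap at 39.7 ± 1.44 TPM and Cldn5 at 28.7 ± 1.77 TPM. Mfsd2a and Reck lay together near 14 TPM, Adgra2 lay at 2.67 ± 0.184 TPM, Ocln at 1.11 ± 0.0636 TPM and Abcb1a at 0.705 ± 0.290 TPM. The levels of the 8 genes spanned the protein-coding genes from percentile 37.0 for Abcb1a to percentile 94.7 for Slc2a1. The libraries' ranges were separate for every pair of neighbours in this order except Mfsd2a and Reck, whose ranges overlapped. The counts of the lowest genes left more room: the 95% counting interval of Ocln reached from 0.876 to 1.51 TPM in replicate 1, across the detection limit, and met that of Abcb1a, from 0.701 to 1.17 TPM. In whole tissue, fewer endothelial cells and less RNA per cell cannot be told apart, and transcripts of a gene made by other cells count alike.

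**Figure D1:**
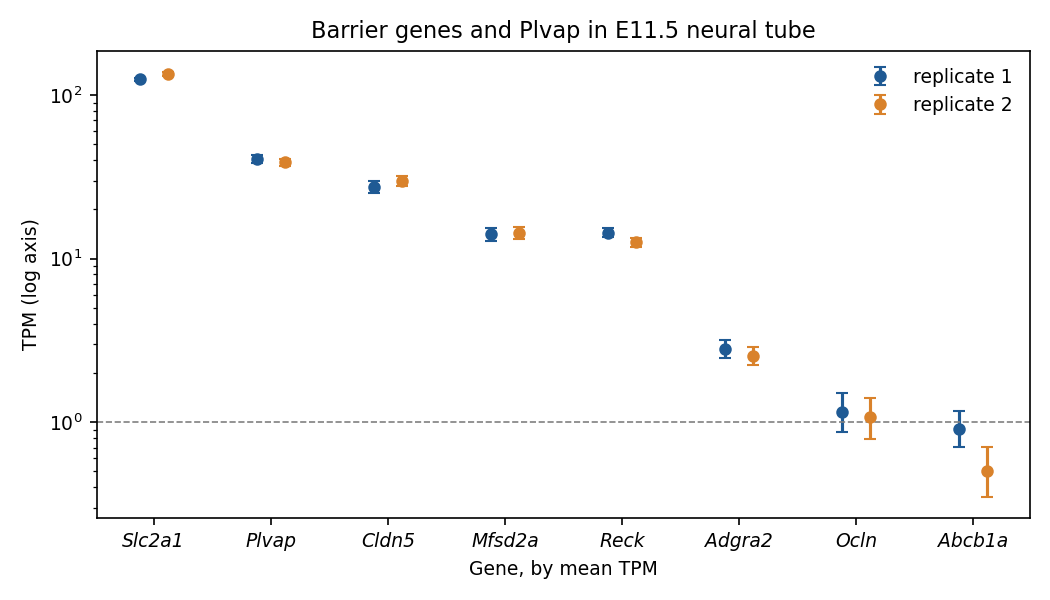
TPM of each of the 8 genes on a log axis in replicate 1 (blue) and replicate 2 (orange), with exact Poisson 95% intervals of the counts as bars; the dashed line marks 1 TPM. Slc2a1 stands at 124.45 and 134.89 TPM, and Abcb1a is the 1 gene below the line in both libraries, at 0.91 and 0.50 TPM.

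Plvap was measured against each barrier gene within each library. Plvap (ENSMUSG00000034845.5, chromosome 8, 71497765 to 71511752, GRCm38) had 40.74 TPM from 1358 counts in replicate 1 and 38.70 TPM from 1331 counts in replicate 2. It was higher than 6 of the 7 barrier genes in both libraries and lower than Slc2a1 in both. Against the median of the 7 barrier genes, which was 14.08 and 12.57 TPM, Plvap was higher by a log2 difference of 1.58 ± 0.06, or 2.98-fold. That median was the value of Mfsd2a in replicate 1 and of Reck in replicate 2, so this SD also spans 2 genes. Without Slc2a1, a choice made after the values were seen, the log2 difference was 2.31. Removing the 1 gene above Plvap could not lower it.

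The closest gene was Cldn5. Plvap exceeded it 1.49-fold in replicate 1 and 1.29-fold in replicate 2, a log2 difference of 0.47 ± 0.14, and the 95% counting intervals of the log2 difference ran from 0.43 to 0.71 and from 0.24 to 0.51. Both intervals lay above 0, so the order of the pair was the same in both pools. Plvap exceeded Mfsd2a by a log2 difference of 1.49 ± 0.07 and Reck by 1.56 ± 0.09. The differences were wider for the low genes, at 3.90 ± 0.05 for Adgra2, 5.16 ± 0.03 for Ocln and 5.88 ± 0.56 for Abcb1a. These last values depended on the processing: a pseudocount of 1 TPM gave 4.27 for Ocln and 4.59 for Abcb1a, counts per exon base gave 5.77 for Ocln, and the posterior mean estimate in the files gave 3.84 for Abcb1a. Slc2a1 was the exception, with Plvap at a log2 difference of -1.71 ± 0.13, so that Slc2a1 was 3.26-fold higher. No test over samples was made, since an exact paired permutation test over 2 libraries cannot give a two-sided p below 0.5.

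**Figure D2:**
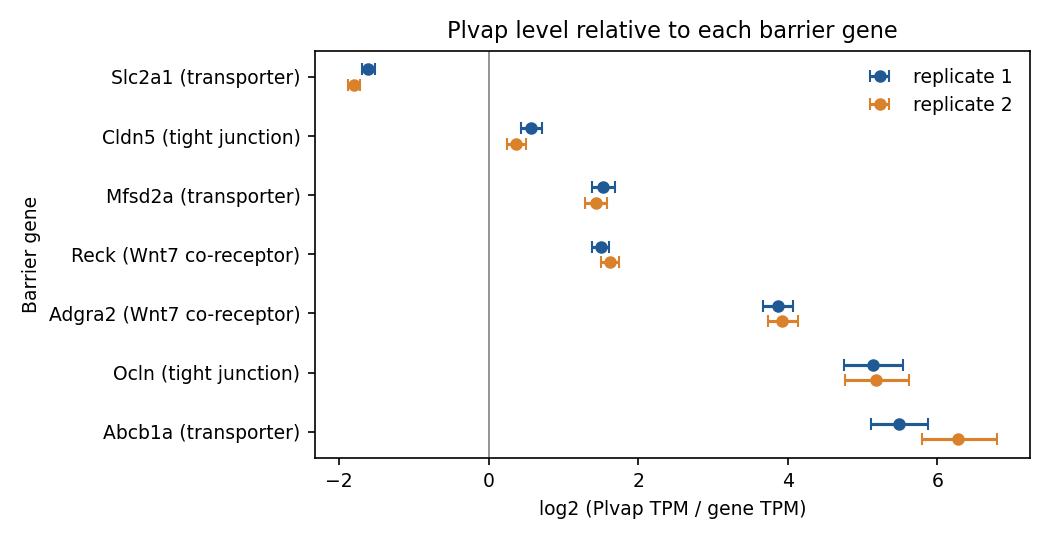
Log2 ratio of Plvap TPM to the TPM of each barrier gene in replicate 1 (blue) and replicate 2 (orange), with exact 95% counting intervals as bars. Points to the right of 0 have more Plvap: Cldn5 lies nearest, at 0.57 and 0.37, and Slc2a1 alone lies to the left, at -1.61 and -1.80.

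The tight junction genes lay far apart. Cldn5 (ENSMUSG00000041378.1, chromosome 16, 18776847 to 18778262), the main claudin of brain endothelium, had 27.41 TPM from 627 counts in replicate 1 and 29.91 TPM from 706 counts in replicate 2. Ocln (ENSMUSG00000021638.8, chromosome 13, 100496507 to 100552718), which encodes the junction protein occludin and is also made by epithelia, had 1.16 TPM from 56 counts and 1.07 TPM from 49 counts. Cldn5 was 25.7-fold higher, a log2 difference of 4.68 ± 0.17, and the values of the genes did not overlap. By the posterior mean in the files Cldn5 was 18.5-fold higher, a log2 difference of 4.21. Epithelial markers were present, with 9 of 9 genes detected at a median of 7.29 TPM, and their part in the level of Ocln was not tested.

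The sequences before the starts of this pair are shown because their levels lay so far apart in the same tissue. Each is the 250 bases before a RefSeq start that is also a GENCODE start (GRCm38.p6), read 5′ to 3′ on the gene's strand, Cldn5 from chr16:18776597-18776846 on the plus strand and Ocln from chr13:100552719-100552968 on the minus strand. Capitals mark matches on either strand to the CCAAT box (CCAAT), the GC box (GGGCGG) and the ETS core (CCGGAA or CAGGAA).
Cldn5: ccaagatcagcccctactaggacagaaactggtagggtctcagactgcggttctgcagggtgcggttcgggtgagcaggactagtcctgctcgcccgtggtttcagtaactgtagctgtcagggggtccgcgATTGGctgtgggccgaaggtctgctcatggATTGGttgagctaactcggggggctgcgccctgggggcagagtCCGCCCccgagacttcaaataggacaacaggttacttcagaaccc
Ocln: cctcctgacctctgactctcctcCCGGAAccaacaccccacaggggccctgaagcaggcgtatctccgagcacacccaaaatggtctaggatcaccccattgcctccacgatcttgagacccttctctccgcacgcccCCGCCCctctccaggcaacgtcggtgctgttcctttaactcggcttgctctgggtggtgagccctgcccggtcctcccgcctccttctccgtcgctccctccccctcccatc
The Cldn5 window held 2 CCAAT boxes, whose first bases lie 118 and 88 bases before the start, and 1 GC box 45 bases before it. The Ocln window held 1 GC box, 112 bases before the start, and 1 ETS core, 227 bases before it. RefSeq lists a second start of Ocln, inside the gene, whose window (chr13:100552499-100552748, not printed) held 1 CCAAT box 25 bases before that start and 1 GC box 43 bases before it. CCAAT and GC boxes were thus present at Ocln as well as at Cldn5. Of 32851 windows of this length 33.8% held a CCAAT box, 32.7% a GC box and 35.1% an ETS core, so such matches are common. The GC content was 59.6% for Cldn5 and 64.0% for Ocln, against a median of 52.4% over all windows. No measurement of binding or chromatin was made here, and the matches are a description of the sequences.

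Ocln was also lower than the other junction genes. At least 1 TPM was reached in both libraries by all 12 further genes of tight junctions and their scaffold, beside 59.9% of protein-coding genes. Their median was 16.4 TPM. The highest were the junctional adhesion molecule genes Jam3 at 108.3 ± 0.311 TPM and Jam2 at 50.3 ± 2.38 TPM, and the claudin gene Cldn12 at 28.7 ± 0.530 TPM. Cldn12 and Cldn5 could not be told apart, with a log2 difference of -0.0025 ± 0.062 that changed sign between the libraries. The lowest of the 12, Marveld2, at 2.03 ± 0.276 TPM, still lay above Ocln; it was chosen after its value was seen. Ocln lay below all 15 general endothelial genes.

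The transporter genes held both ends of the range given above. By the posterior mean in the files, Ocln was instead the lowest of the 8 genes. Slc2a1 (ENSMUSG00000028645.6, chromosome 4, 119108711 to 119137983), which encodes the glucose transporter GLUT1, had 124.45 TPM from 5399 counts in replicate 1 and 134.89 TPM from 6051 counts in replicate 2. It was 4.53-fold higher than Cldn5 and stood above all 15 general endothelial genes, the highest of which, Ramp2, had 57.8 ± 1.15 TPM. GLUT1 is also made by neural progenitors and blood cell precursors, and markers of both were abundant, with progenitor genes at a median of 45.9 TPM over 8 genes and erythroid genes at a median of 34.0 TPM over 7. Their part in the level of Slc2a1 was not tested.

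Mfsd2a (ENSMUSG00000028655.7, chromosome 4, 122946850 to 122961188), a carrier of lysophospholipids that also restrains vesicle transport across brain endothelium, had 14.08 TPM from 485 counts and 14.28 TPM from 526 counts. As TPM, these values were within counting error of each other. Scaled by spike-ins, replicate 2 was higher by a log2 ratio of 0.23. Mfsd2a lies 3.81 Mb from Slc2a1 on the same chromosome, and Reck lies on it as well.

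Abcb1a (ENSMUSG00000040584.8, chromosome 5, 8660077 to 8748575), which encodes the drug efflux pump P-glycoprotein, had 0.91 TPM from 62 counts in replicate 1 and 0.50 TPM from 35 counts in replicate 2. Both values lay below those of the other 7 genes, and the libraries differed more than for any of these. Its paralog Abcb1b had 0.38 and 0.33 TPM. Of 5404 windows of 100 bases in Abcb1a transcripts 9.23% occurred in Abcb1b or Abcb4, while none did for the other 7 genes, so the counts of the pair depend in part on how shared reads were divided. Together Abcb1a and Abcb1b had 1.29 TPM in replicate 1 and 0.83 TPM in replicate 2. The interval deposited with the Abcb1a level, whose probability the files do not state, ran from 0.794 to 6.67 TPM in replicate 1 and from 0.451 to 6.07 TPM in replicate 2. The posterior mean in the same files was higher, at 2.91 and 2.49 TPM, and 63.6% and 72.1% of it was given to a transcript of 129 bases that held 0 expected counts. Under that estimate Abcb1a therefore passed 1 TPM and lay above Ocln, which had 1.61 and 1.40 TPM.

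Detection was reached by 9 of 12 further transporter genes of the barrier, beside 59.9% of protein-coding genes. A count of 9 in 12 is near that share and is no result about the list. The median of the 12 was 11.1 TPM. The amino acid transporter subunit gene Slc3a2 had 60.3 ± 3.20 TPM, the transferrin receptor gene Tfrc, which erythroid cells also make, had 52.9 ± 1.22 TPM, and the efflux pump gene Abcg2 had 31.9 ± 0.849 TPM. Abcg2 was 47.3-fold higher than Abcb1a, a log2 difference of 5.56 ± 0.65, but 12.2-fold higher, a log2 difference of 3.61, by the posterior mean. The genes below detection were Abcb1b at 0.355 ± 0.0354 TPM, the organic anion carrier gene Slco1a4 at 0.05 ± 0.0707 TPM, from 0 and 4 counts, and Slco1c1, a thyroid hormone carrier gene, at 0.505 ± 0.0212 TPM, which was named after its value was seen.

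The co-receptors of Wnt7 were unequal. Reck (ENSMUSG00000028476.9, chromosome 4, 43875530 to 43944806), a membrane-anchored protein that binds Wnt7 and is also made by mesenchyme, had 14.41 TPM from 1087 counts and 12.57 TPM from 978 counts. Adgra2 (ENSMUSG00000031486.10, chromosome 8, 27085583 to 27123436), the adhesion receptor also called Gpr124, had 2.80 TPM from 242 counts and 2.54 TPM from 245 counts. Reck was 5.05-fold higher, a log2 difference of 2.34 ± 0.04, and the libraries did not overlap.

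Every 1 of 15 further genes of the Wnt7 and beta-catenin pathway passed 1 TPM in both libraries, beside 59.9% of protein-coding genes. Their median was 14.5 TPM. Ctnnb1, which encodes beta-catenin and serves every cell type, was the highest at 531 ± 6.89 TPM. The ligand gene Wnt7b had 61.8 ± 2.57 TPM and Wnt7a had 8.49 ± 0.700 TPM, so Wnt7b was 7.28-fold higher. Tspan12, a partner of the receptor Fzd4, had 55.2 ± 1.07 TPM. Fzd4 itself, named after its value was seen, had 4.04 TPM in replicate 1 and 3.57 TPM in replicate 2. Which cells made Tspan12 was not tested. Pericyte and connective tissue genes, which stand for cells that can also make Reck and Adgra2, passed 1 TPM in 9 of 9 and 9 of 9 cases, with medians of 8.0 and 34.0 TPM, and their part in these levels was not tested.

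The set was then placed beside general endothelial genes, which stand for the vessel content of the tissue. The median of the 15 endothelial genes was 15.2 TPM in replicate 1 and 15.7 TPM in replicate 2. Plvap exceeded it by a log2 difference of 1.36 ± 0.09, or 2.57-fold, and Cldn5 by 0.89 ± 0.05, or 1.85-fold. Each of them stood above 12 of the 15 genes, with only Ramp2, Egfl7 at 57.1 ± 4.97 TPM and Cd34 at 50.7 ± 3.29 TPM higher. Plvap was 2.04-fold above Pecam1, the adhesion molecule gene of all endothelium at 19.5 ± 0.424 TPM, and 2.57-fold above Cdh5, which encodes VE-cadherin. Cdh5 was itself the median gene of the list in both libraries. Its ratio therefore repeats the ratio to the median and is no second comparison. Mfsd2a and Reck were close to the endothelial median, at log2 differences of -0.13 ± 0.02 and -0.20 ± 0.17. Adgra2, Ocln and Abcb1a lay below it by log2 differences of -2.54 ± 0.13, -3.80 ± 0.12 and -4.52 ± 0.65. All 3 depended on the processing. With the posterior mean they became -2.37, -3.32 and -2.48, and with a pseudocount of 1 TPM -2.17, -2.96 and -3.28.

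Genes of vesicles and leukocyte adhesion were also set beside Plvap, and whether their levels relate to the state of the barrier was not tested. Detection was reached by 6 of 8 such genes, near the 59.9% of protein-coding genes and so no result about the list. The list median was 6.97 TPM. Vcam1, an adhesion molecule that neural and mesenchymal cells also make, had 31.8 ± 2.96 TPM, the caveolin gene Cav1 had 14.2 ± 1.58 TPM and Icam2 had 13 ± 0.269 TPM. The selectin genes were at or near 0. Sele had 0 and 3 counts. Selp had 0 counts in each library, and such a count leaves room for a level of 0.135 TPM (replicate 1) or 0.131 TPM (replicate 2) by counting error alone. The posterior mean of Selp in the files was higher than this, at 0.44 TPM in both libraries, with deposited intervals that reached 0.958 and 0.966 TPM.

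**Figure D3:**
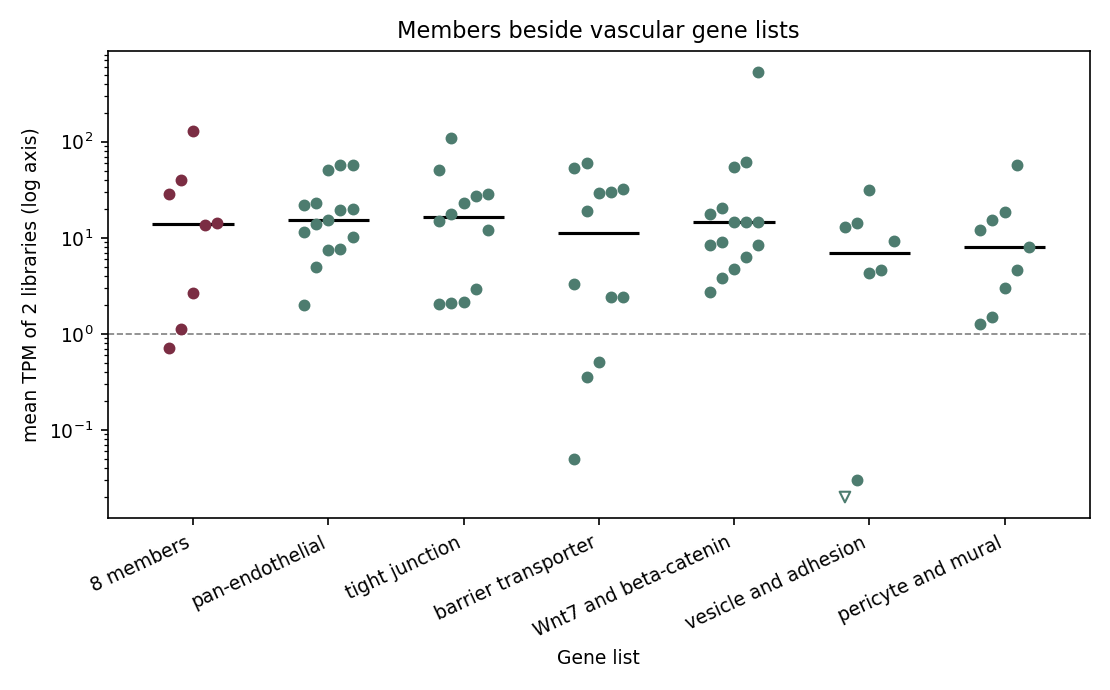
Mean TPM of the 2 libraries on a log axis for the 8 genes (red) and the genes of 6 vascular lists (green), with the list median as a bar; the dashed line marks 1 TPM and the open triangle marks Selp at 0. The median of the 8 genes, 13.8 TPM, lies near that of the general endothelial list, 15.5 TPM, while their lowest and highest values spread from 0.705 to 129.7 TPM.

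The transcripts behind the levels were compared between the pools. Plvap and Cldn5 each have 1 annotated transcript in the files. A protein-coding transcript took 99.3% ± 0.339 of Slc2a1, 98.1% ± 0.629 of Reck and 97.9% ± 3.03 of Mfsd2a, as shares of the gene's TPM. The leading transcript was the same in both libraries for these genes.

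The low genes were less settled. Adgra2-201 took 61.8% of Adgra2 in replicate 1 and 82.8% in replicate 2, with Adgra2-202 at 27.3% and 12.7%. For Ocln the transcript in the lead depended on the measure. By share of TPM it was Ocln-203 at 48.4% in replicate 1 and Ocln-202 at 60.3% in replicate 2. By expected counts Ocln-202 led in both libraries, with 33.1 and 45.8, while Ocln-203 had 18.1 and 0. By the share of the posterior mean Ocln-204, a transcript of 390 bases, led in both, at 28% and 40.7%. Abcb1a-201, the coding transcript, took 56.3% and 56.2% of Abcb1a, and Abcb1a-202, which the annotation types as a retained intron, took 43.7% and 43.8%. The coding transcript of Abcb1a thus stood at 0.51 and 0.28 TPM. Of the posterior mean, Abcb1a-201 had 17.6% and 11.4%, and the transcript of 129 bases led.

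**Figure D4:**
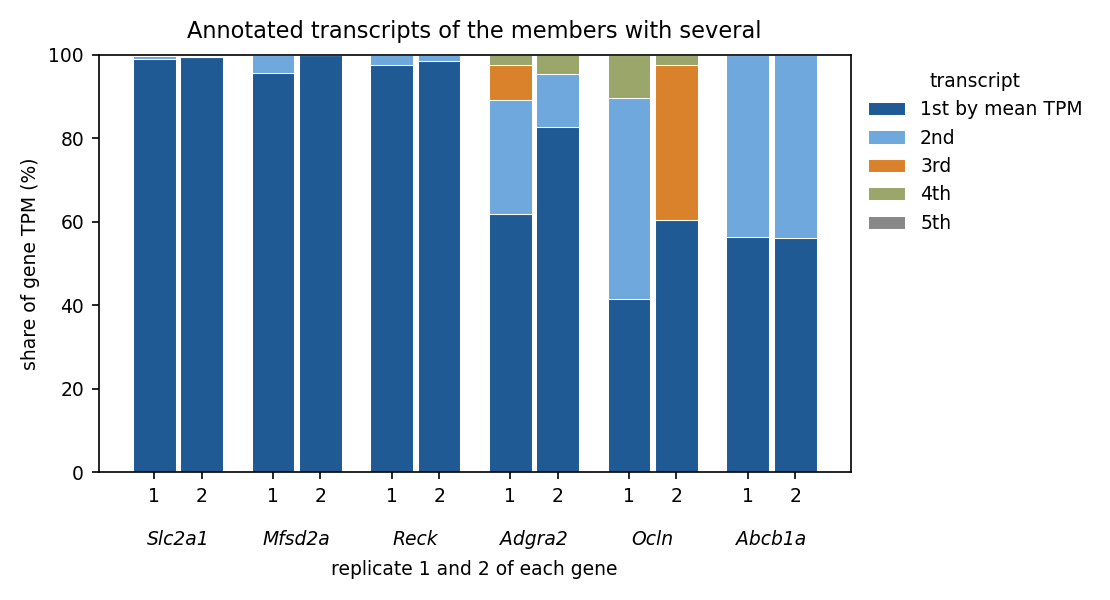
Share of each gene's TPM given to its annotated transcripts, as stacked bars for replicates 1 and 2, with colours by the transcript's rank in mean TPM within its gene. Slc2a1, Mfsd2a and Reck rest on 1 transcript, whereas the TPM shares of Ocln differ between the libraries (by expected counts Ocln-202 leads in both) and Abcb1a is split 56.2% to 43.8% in replicate 2.

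Reads of overlapping genes could touch few of these values. Slc2a1 shares 105 exon bases with the antisense gene Gm12868, which had 0.38 and 0.37 TPM. Adgra2 shares 73 exon bases, 1.26% of its exons, with Brf2 on the opposite strand, a gene with 13.6 and 15.1 TPM. The other 6 genes share no exon base with another annotated gene.

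The pools were compared gene by gene as log2 ratios of replicate 2 to replicate 1, with 1 library on each side, so the ratios describe these libraries and carry no p. Of the 8 genes 1 differed by more than 1.5-fold, where 10.8% of 17219 genes did, 5.95% lower and 4.87% higher in replicate 2. That gene was Abcb1a, lower in replicate 2 by a log2 ratio of -0.88, with a 95% counting interval of -1.55 to -0.29. It also had few counts, and among genes with a mean of 25 to 100 counts 21.1% passed 1.5-fold, against 1.12% of those with 100 or more. A count of 1 in 8 is near these backgrounds and is no result about the set. When 100 counts in a library were required, Abcb1a left the comparison and the count was 0.

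With TMM scaling the other 7 genes had ratios from -0.27 for Ocln to 0.08 for Cldn5. At that scaling the intervals of Cldn5, Mfsd2a, Adgra2 and Ocln included 0. Slc2a1 stood at 0.08 (0.02 to 0.13), Reck at -0.24 (-0.37 to -0.11) and Plvap at -0.12 (-0.23 to -0.01). These values depended on the scaling, since spike-ins moved the median of all genes up by 0.20. Scaled by spike-ins, Slc2a1 stood at 0.28, Reck near 0 at -0.041 and Plvap at 0.08, and Adgra2 went from -0.07 to 0.13. Cldn5 rose from 0.08 to 0.28 and Mfsd2a from 0.03 to 0.23, while Ocln stood at -0.08. No interval was computed at the spike-in scaling. The median size of the ratio was 0.10 for the 8 genes and 0.12 for all genes compared.

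Marker lists of other cells differed in their ratios between the pools. With TMM scaling, connective tissue genes had a median log2 ratio of -0.16 over 9 genes, with summed levels of 697 and 633 TPM, and pericyte genes had -0.15 over 9 genes, with 129.5 and 112 TPM. Neuron genes had 0.14 over 6 genes, with 1640.1 and 1879.8 TPM, and the 15 endothelial genes had -0.04, with 315 and 331 TPM. Neural progenitor, erythroid and macrophage genes had medians of 0.04, -0.04 and 0.01. With spike-in scaling the medians were 0.04 for connective tissue, 0.05 for pericyte, 0.34 for neuron and 0.16 for endothelial genes, so that of these 4 lists only the neuron genes kept their sign. The part of these lists in the ratios of Reck and Plvap was not tested. Of the 12 further junction genes 1, Cldn1, passed 1.5-fold, at -0.88, beside 10.8% of all genes and 1.12% of those at its depth of 100 or more counts. In the marker lists 1 gene each passed, Cspg4 (-0.68) of 9 pericyte, Aif1 (-0.60) of 7 macrophage and Ttr (-0.87) of 3 compared choroid plexus genes. Each was lower in replicate 2, as 5.95% of all genes were. Aif1 had 51 and 35 counts and Ttr 24 and 13. Their counting intervals, -1.30 to 0.02 and -2.07 to 0.06, included 0, while that of Cspg4, -0.97 to -0.40, did not. Of all genes with a mean of 25 to 100 counts, the depth of Aif1, 21.1% passed 1.5-fold. Cspg4, with 254 and 168 counts, lay at the depth where 1.12% passed. Ttr lay below both depths. Cldn1, Cspg4, Aif1 and Ttr were named after their values were seen. None of the 15 Wnt pathway genes, of the 11 transporter genes that could be compared or of the 15 endothelial genes passed 1.5-fold.

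**Figure D5:**
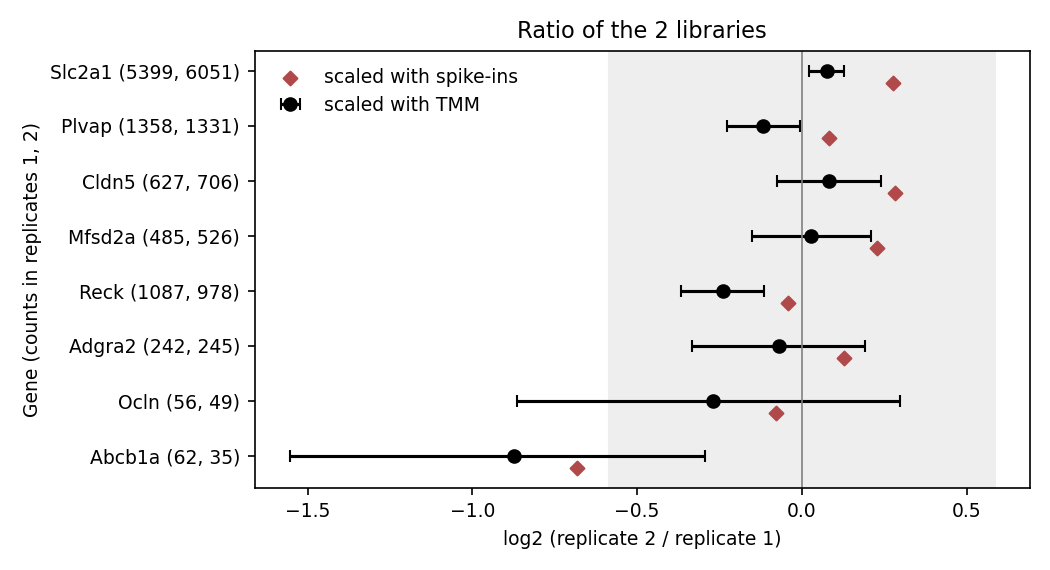
Log2 ratio of replicate 2 to replicate 1 for each gene, scaled with TMM (black, with exact 95% counting intervals) or with spike-ins (red diamonds); the grey band spans 1.5-fold in each direction and counts are given beside the names. Abcb1a lies outside the band at -0.88, and the other 7 points lie inside it.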

How the data were processed

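Expected counts and TPM values were deposited by the authors per gene and per transcript for 2 libraries, on mm10 with GENCODE M4, per the deposited file descriptions. The share of each transcript was deposited as a percent. Aligner, quantifier and strandedness: not given in the sources used here. Overlapping genes were therefore taken to share reads whatever their strand. Deposited TPM includes spike-ins (13.2% and 11.8% of TPM).

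Gene symbols, gene types and positions were read from GENCODE M21 (GRCm38, the build of mm10); 42462 of 43346 identifiers matched. Entries that name no gene (97 spike-ins and 26248 numbered entries, 5.72% and 5.02% of counts) were left out of library sizes. Expected counts were rounded, and TMM-scaled log2 ratios with a prior count of 2 came from edgeR 4.0.16 (R 4.3.3), for genes that reached 10 counts in 1 library or both. DESeq2 1.42.0 gave alternative size factors. In simulated counts for the comparison of the libraries, restricted to genes with a mean of 100 counts or more, 1.5-fold was passed by 100 of 100 genes set to 2-fold, by 100 of 100 set to 4-fold and by 4 of 12152 left as they were. These simulated counts held Poisson counting error alone. Between the real libraries 1.12% of genes at that depth passed, so the simulation understates the spread. Abcb1a lay below that depth and was not covered.

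Intervals (exact Poisson for levels, exact binomial for ratios, 95%) and the limit of 3 counts for a count of 0 describe counting error alone, since reads that carry no molecular identifier need not be separate molecules. SDs cover these 2 pools. The labels call both libraries biological replicates and give them the same donor entry.

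The members, the 14 lists (126 genes) and the motifs were chosen with earlier results of these data known. All members are named, and of each pathway list (tight junction, transporter, Wnt7, vesicle and adhesion) the 3 highest genes and up to 2 below 1 TPM in both libraries, with Abcb1b, Wnt7a, Wnt7b, Pecam1 and Cdh5 always. Genes of the cell marker lists were named after their values were seen. No gene of like pattern was sought, since 2 libraries give no pattern. Promoter windows came from RefSeq (GRCm38.p6), which matched 6 of 8 members, without Plvap and Adgra2. Alternatives covered the estimate (for transcript shares too), pseudocount, length, reference genes, scaling, filters and each replicate left out. Python 3.11.15 did the remaining steps.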

Additional observations from a re-analysis of the deposited data

How the results depend on the processing

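Plvap stayed above the median of the barrier genes under all 8 alternatives, at log2 differences of 1.51 with a pseudocount of 1 TPM, 1.69 with counts per exon base, 1.49 without Adgra2 and Reck, 2.31 without Slc2a1 (an alternative chosen after the data were seen), 1.52 with the posterior mean, 1.52 with detected genes only, and 1.53 to 1.62 with 1 replicate left out. Over these and each single barrier gene, all 43 alternative values kept their sign. Part of this count was fixed in advance. A pseudocount cannot change the sign of a ratio, and leaving 1 replicate out returns the value of the other library, already given above. Leaving out Slc2a1, the 1 barrier gene above Plvap, could not lower the difference. The count of detected members was 7, and it was 8 at 0.5 TPM or with the posterior mean, 5 at 5 TPM and 7 without either replicate. The 1 member past 1.5-fold became 0 when 100 counts in a library were required, since Abcb1a then left the comparison. The 1862 genes past 1.5-fold became 193 under that filter and 5189 with no filter, which adds or removes low genes by construction. The share of the leading transcript moved by more than its spread with the posterior mean for 5 members, most for Abcb1a, from 56.2% to 14.5%, and Ocln, from 50.9% to 30.9%. No paired analysis was possible because the series holds 1 group. Depth limits Ocln and Abcb1a most, each with fewer than 100 counts in either library.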

Other observations

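Markers of vessels and tissues next to the neural tube were read from the same libraries. Choroid plexus genes were low, and none of 5 reached 1 TPM in both libraries. Ttr, the carrier gene of the mature plexus, had 1.23 TPM in replicate 1 and 0.65 TPM in replicate 2, and the folate receptor gene Folr1 had 0.71 and 0.39 TPM but 2.30 and 2.16 TPM by the posterior mean, so the count of 0 depended on the estimate and on replicate 2. All 4 genes of the lymphatic list were detected, but Pdpn, at 112.9 ± 5.36 TPM, and Prox1, at 9.95 ± 1.44 TPM, are also made by neural cells, and Lyve1, the receptor gene of lymphatic endothelium and macrophages, had 1.24 ± 0.127 TPM and Flt4 had 3.85 ± 0.00707 TPM. All 7 macrophage genes passed 1 TPM in both libraries, the complement gene C1qb being the highest of them at 20.2 ± 1.41 TPM.

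The RefSeq start used for the Abcb1a promoter window lies 93.0 kb from the nearest GENCODE M21 start of the gene, while the windows of Cldn5, Ocln, Mfsd2a and Reck end at a GENCODE start and that of Slc2a1 lies 34 bases from one. The Abcb1a window held 2 matches to the TCF/LEF core (CTTTGAT or CTTTGAA on either strand), where 7.48% of all windows held at least 1, and the windows of the other 5 matched members held none. Its GC content was 40.4%, against a median of 52.4%, and it held no CpG. Whether transcripts from that start were counted for Abcb1a was not tested.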
